A study of Saccharomyces cerevisiae with 32 samples.

Results

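The C-terminal peptide of CRIPT was listed as 8 residues, and the sequences described here carried exactly 2 substitutions, both among residues 1 to 4. They were chosen by sequence alone: every listed peptide without a stop codon that differed from the wild-type peptide at 2 positions, both within the first 4. Of the 2166 such peptides that are possible, 2114 (97.6%) were listed, out of 8449 peptides with 2 substitutions in the same table and 470640 sequences in the whole series. The study measured how substitutions in PDZ3, a PDZ domain of PSD95, and in its CRIPT ligand changed binding in budding yeast, read out as growth. The pairwise CRIPT library was transformed into yeast of laboratory strain BY4741 in 3 biological replicates. Input cultures were grown for 5 generations without methotrexate, and output cultures for about 5 generations with 200 µg/mL methotrexate, 3 replicates each. A separate library that varied residues 1 to 4 in combination was treated in the same way, again with 3 replicates per condition, and held 933 of the same sequences.

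The authors had merged the 3 replicates of input and output into 1 fitness score and 1 error per peptide. No value per replicate was therefore analysed, the spread between cultures cannot be shown, and the depth behind each score is unknown. A ± beside the score of 1 peptide is the authors' deposited error. Beside a mean or a difference, ± is an error propagated from those errors and not a spread over peptides. For mean effects it includes the wild-type error of 0.0140. The log base of the score and the kind of error were not given in the sources used here. All measurements come from 1 reporter in 1 yeast strain.

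PDZ domains are small protein interaction modules that hold the free C-terminus of a partner protein in a groove. The last residue and the residue 2 places before it form the core of the motif, and residues farther upstream make further contacts with the domain. PSD95 is a scaffold protein of excitatory synapses, CRIPT is a known ligand of its PDZ3, and in a protein complementation assay the binding of both fusion partners rebuilds a split enzyme that the cell needs in the presence of the drug. Positions are counted from 1 at the first listed residue. In ligand numbering, where the last residue is position 0, K1, N2, Y3 and K4 are positions -7, -6, -5 and -4, all upstream of the core motif.

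The wild-type peptide is shown first. The next 4 peptides placed a basic residue at position 2 beside an acidic residue at position 1, and the 4 after them replaced K1 and K4 by acidic residues. The last set holds the highest peptides by error-filtered rank, the peptide with arginine at both lysine positions, and the peptides farthest from the score their single substitutions predicted, among those whose deviation passed the test.
wild type: KNYKQTSV
K1D/N2K: DKYKQTSV
K1E/N2K: EKYKQTSV
K1D/N2R: DRYKQTSV
K1E/N2R: ERYKQTSV
K1D/K4D: DNYDQTSV
K1D/K4E: DNYEQTSV
K1E/K4D: ENYDQTSV
K1E/K4E: ENYEQTSV
N2K/Y3W: KKWKQTSV
N2M/Y3W: KMWKQTSV
K1R/K4R: RNYRQTSV
K1V/K4G: VNYGQTSV
K1Y/Y3G: YNGKQTSV
Y3S/K4G: KNSGQTSV
Y3D/K4D: KNDDQTSV
Y3N/K4D: KNNDQTSV
Y3M/K4A: KNMAQTSV

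The wild-type peptide scored 0.0314 ± 0.0140, and 874 peptides with a stop codon had a median score of -0.893. A score halfway between them was -0.431, and 600 of the 2114 doubly substituted peptides (28.4%) lay below it. Their scores ran from -1.16 to 0.139, with a mean of -0.297 and a median of -0.259. The mean lay 0.329 below wild type (mean effect -0.329, propagated error 0.0140, SD over peptides 0.223). The median error was 0.0530, against a median of 0.0743 over all peptides with 2 substitutions in the table.

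Most of these peptides grew more slowly than wild type. Of the 2114, 1733 (82.0%) scored lower than wild type, beside 89.3% of all sequences of the pairwise table. The test was a two-sided normal test on the authors' errors with Benjamini-Hochberg adjustment over all 9474 other sequences of that table, at an adjusted p of 0.05. None scored higher than wild type, beside 0.179% of the table, and none did so at an unadjusted p of 0.05. The scores of 46 peptides were nominally above the wild-type score. The same wild-type measurement, with its own error, enters each of these comparisons. The errors come from 3 merged replicates, for which a normal test is an approximation that no exact test could replace here, so calls are given with the size and error of each difference and without p-values. Against a reference of 0 in place of the measured wild type, 3 peptides were called higher, N2M/Y3W, N2R/Y3W and N2V/Y3W, which all hold tryptophan at position 3.

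Typical scores differed between position pairs. Peptides with K1 and N2 replaced stayed closest to wild type, with a mean effect of -0.133 ± 0.0144 and 191 of 347 (55.0%) lower than wild type. Replacing N2 and Y3 gave -0.149 ± 0.0144 and 210 of 352 lower (59.7%). The K1 and Y3 pair followed at -0.253 ± 0.0144, with 296 of 352 lower (84.1%). The N2 and K4 pair reached -0.385 ± 0.0145, with 335 of 353 lower (94.9%). The 2 lowest pairs were K1 with K4 at -0.522 ± 0.0145 (356 of 358 lower, 99.4%) and Y3 with K4 at -0.524 ± 0.0147 (345 of 352 lower, 98.0%). Of the 15 differences between these means, 14 passed the test on propagated errors with Benjamini-Hochberg adjustment over the 15. The smallest of them, between the K1 and N2 pair and the N2 and Y3 pair, was 0.0154 ± 0.00502. The K1 and K4 pair lay 0.00227 ± 0.00607 above the Y3 and K4 pair, which did not pass.

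The single substitutions of the same table followed the same order of positions. Single substitutions averaged 0.0139 at N2, -0.0814 at K1, -0.103 at Y3 and -0.319 at K4. At K4, 18 of 19 were lower than wild type and the remaining one, K4R, scored 0.00631 ± 0.0150. At N2 only 4 of 19 were lower. Y3W, which places a larger aromatic residue at position 3, was the only single substitution at positions 1 to 4 that was higher than wild type, at 0.0998 ± 0.0200.

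The range within each position pair was wide. The peptides named here are the 2 highest and 2 lowest of each pair among peptides whose error was at most the median error of the table. With K1 and N2 replaced, K1R/N2K (0.0719 ± 0.0475) and K1R/N2I (0.0680 ± 0.0441) were highest, and K1S/N2D (-0.267 ± 0.0572) and K1W/N2F (-0.252 ± 0.0640) lowest. With K1 and Y3 replaced, the highest were K1R/Y3W (0.0694 ± 0.0359) and K1R/Y3F (0.0232 ± 0.0371), both conservative at each position. The lowest of that pair, K1W/Y3D (-0.742 ± 0.0729) and K1L/Y3D (-0.589 ± 0.0540), share aspartate at position 3.

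With K1 and K4 replaced, K1R/K4R kept the positive charge at both positions and scored -0.0188 ± 0.0227, a difference from wild type that did not pass the test. K1T/K4R came next at -0.0359 ± 0.0221, and its difference from wild type of -0.0673 passed the test, though not at an adjusted p of 0.01, against a reference of 0 or with an added error estimated from the second library. The lowest of the pair were K1M/K4W (-0.834 ± 0.0601) and K1S/K4W (-0.795 ± 0.0635). With both lysines replaced by alanine, K1A/K4A scored -0.468 ± 0.0367.

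With N2 and Y3 replaced, N2K/Y3W had the highest score of all 2114 peptides, 0.139 ± 0.0707, followed among these by N2M/Y3W at 0.118 ± 0.0579. Neither passed the test against wild type. The lowest were N2D/Y3E (-0.456 ± 0.0733) and N2A/Y3E (-0.448 ± 0.0569), both with glutamate in place of the tyrosine. With N2 and K4 replaced, N2K/K4R (0.0457 ± 0.0304) and N2I/K4R (0.0353 ± 0.0364) were highest, while N2W/K4G (-0.752 ± 0.0643) and N2W/K4D (-0.710 ± 0.0703) were lowest. With Y3 and K4 replaced, Y3W/K4R (-0.00258 ± 0.0343) and Y3W/K4Q (-0.0101 ± 0.0551) stayed near wild type, and Y3L/K4W (-0.924 ± 0.0632) and Y3E/K4G (-0.910 ± 0.0615) lay close to the median of the stop codon peptides.

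Mean scores rose with the net charge change of the new residues, though charge did not order every residue. Lysine and arginine were counted as +1, aspartate and glutamate as -1 and all other residues as 0, so the loss of a wild-type lysine counts as -1. From a net change of -4 to one of +2, the mean scores were -0.715 (4 peptides), -0.607 (78), -0.459 (498), -0.282 (1047), -0.123 (415), -0.0441 (68) and 0.00498 (4). The mean rose at each step. At position 4, however, the single uncharged substitutions K4W (-0.566) and K4G (-0.558) scored below the acidic K4D (-0.511) and K4E (-0.377). Single polar, aliphatic and proline substitutions there scored above both acidic ones. Because K1 and K4 are the charged residues of wild type, charge change and position pair are tied, and the steps were tested within each position pair.

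Within position pairs, 16 of 24 steps of 1 charge passed the test, all of them towards a higher score with more positive charge. For K1 with K4, the step from -2 to -1 raised the mean from -0.488 to -0.216, a difference of 0.272 ± 0.00713, and the step from -1 to 0 raised it by a further 0.197 ± 0.0234. The top of that series is the single peptide K1R/K4R. The 32 peptides at -1 held arginine at either position 1 or position 4. Over all partners in this pair, peptides with arginine at position 4 averaged -0.0886 and those with arginine at position 1 averaged -0.349. These steps therefore do not separate charge from the position that kept it. For K1 with Y3, the step from -2 to -1 was 0.216 ± 0.0101. For N2 with Y3, where wild type has no charge, the step from -1 to 0 was 0.149 ± 0.0111 and the step from 0 to +1 was 0.0550 ± 0.00786. The only step with a negative value was from -3 to -2 for Y3 with K4, at -0.0483 ± 0.0893, and it did not pass. The lower group of that step held only 4 peptides.

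The 4 peptides with acidic residues at both lysine positions spanned a wide range. K1D/K4D scored -1.09 ± 0.194, below the median of the stop codon peptides and with the largest error of the 4. K1D/K4E scored -0.666 ± 0.0692, K1E/K4D -0.552 ± 0.143 and K1E/K4E -0.551 ± 0.0671. The 4 peptides with basic residues at both N2 and Y3 stayed close to wild type: N2K/Y3R scored 0.0433 ± 0.0379, N2K/Y3K 0.0174 ± 0.102, N2R/Y3R 0.00464 ± 0.0241 and N2R/Y3K -0.0454 ± 0.0307. Of these, N2R/Y3K was called lower than wild type (effect -0.0768), a call lost in those same settings.

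The chemistry of the new residue was compared within each position pair, each residue class against all other peptides of the pair. The classes were acidic (D, E), basic (K, R), polar (H, N, Q, S, T), aliphatic (A, C, I, L, M, V), aromatic (F, W, Y), glycine and proline. Of 84 such comparisons, 69 passed with Benjamini-Hochberg adjustment over the 84. Position 4 showed the sharpest contrast. A basic residue there, which can only be arginine, averaged -0.0886 with K1 replaced against -0.513 for the other residues, a difference of 0.424 ± 0.00769. The same contrast was 0.367 ± 0.00790 with N2 replaced and 0.361 ± 0.00907 with Y3 replaced.

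Glycine and aromatic residues were the low classes at position 4. Glycine, the residue without a side chain, averaged -0.690 with K1 replaced (difference -0.211 ± 0.0136), -0.592 with N2 replaced (-0.252 ± 0.0119) and -0.641 with Y3 replaced (-0.157 ± 0.0142). Aromatic residues at position 4 averaged -0.653, -0.510 and -0.646 beside the same partners, with differences of -0.192 ± 0.0137, -0.185 ± 0.0136 and -0.182 ± 0.0158. Acidic residues at position 4 differed by -0.151 ± 0.0157, -0.149 ± 0.0142 and -0.104 ± 0.0224. Polar and aliphatic residues at position 4 were above the others of their pair in all 3 partner positions.

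At position 3, where wild type has tyrosine, aromatic residues gave the high scores and acidic residues the low ones. Aromatic residues there averaged 0.0295 with N2 replaced (difference 0.164 ± 0.0119), -0.0575 with K1 replaced (0.184 ± 0.0108) and -0.312 with K4 replaced (0.203 ± 0.0154). Acidic residues at position 3 averaged -0.353, -0.511 and -0.707 beside the same partners, with differences of -0.262 ± 0.0130, -0.324 ± 0.0143 and -0.239 ± 0.0198. At position 2, basic residues were the high class beside each partner position, by 0.105 ± 0.00918 with K1 replaced, 0.0499 ± 0.00936 with Y3 replaced and 0.122 ± 0.00897 with K4 replaced. Across both positions, the lowest class pair with at least 5 peptides was an acidic residue at position 1 with an aromatic residue at position 4, 6 peptides with a mean of -0.909 ± 0.0707.

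Each substitution was next followed across its partners, as the score of the doubly substituted peptide minus the score of the partner substitution alone. Of the 76 single substitutions at positions 1 to 4, 7 had a median shift above 0. N2K led with 0.0691 over 57 partners, and the doubly substituted score was the higher one for 51 of the 57. Y3W followed with 0.0453 over 56 partners (higher for 45) and N2R with 0.0451 over 57 partners (higher for 50). N2T (0.0124) and N2H (0.00658) completed the 5 highest. As single substitutions, N2K at 0.0689 ± 0.0190 and N2R at 0.0503 ± 0.0155 did not pass the test against wild type.

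The lowest median shifts all belonged to position 4: K4W at -0.608, K4G at -0.597, K4D at -0.564, K4F at -0.513 and K4Y at -0.491. At position 4 the added substitution lowered its partner's score past the threshold in 975 of 1063 peptides, beside 50.4% of all such differences in the table. The counts were 529 of 1056 at position 3, 494 of 1057 at position 1 and 57 of 1052 at position 2. K4R lowered its partner in 1 of 57 peptides and K1R in none of 57, the arginine replacements that keep the positive charge.

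In 29 of 4228 differences (0.686%) the added substitution raised its partner's score past the threshold, beside 2.14% of all such differences in the table. N2K accounted for 9, N2R for 9, Y3W for 8, and N2T, N2V and K1V for 1 each. Of the 29, only K1V/K4G and N2R/K4N also passed the test against the curve of summed single effects described below. The other raises did not depart past the threshold from what their single substitutions predicted. By partner position, the basic residues at N2 raised 12 of 38 K4 substitutions and 6 of 38 K1 substitutions, but 0 of 38 Y3 substitutions. K1E alone scored -0.178 ± 0.0209, and K1E/N2K scored -0.0148 ± 0.0440, a rise of 0.163 ± 0.0487. K1D alone scored -0.209 ± 0.0233, and K1D/N2K scored 0.0350 ± 0.0922. With arginine in place of lysine at position 2, K1E/N2R scored -0.0593 ± 0.0414 and K1D/N2R -0.0966 ± 0.0402. The largest of the raises at position 4 with N2R was N2R/K4N, from -0.328 for K4N alone to -0.123 ± 0.0473, a rise of 0.204 ± 0.0543.

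Y3W raised mainly substitutions at K4. Y3W/K4M scored -0.0464 ± 0.0496 against -0.229 ± 0.0199 for K4M alone, a rise of 0.182 ± 0.0535. Y3W/K4T scored -0.0606 ± 0.0479 against -0.208 ± 0.0180 for K4T, a rise of 0.147 ± 0.0512. Y3W/K4V rose by 0.120 ± 0.0419. All 3 scores were below that of Y3W alone.

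Few peptides ended above the lower of their 2 single substitutions. Of the 2114, 13 (0.615%) did so past the threshold, beside 3.13% of all peptides with 2 substitutions, and 441 (20.9%) were below it, beside 18.3%. Choosing the lower of 2 measured singles biases that reference downward, so the first count is favoured by construction. The 13 were K1D/N2K, K1E/N2K, K1F/N2R, K1V/K4G, N2K/K4I, N2K/K4L, N2K/K4V, N2R/K4L, N2R/K4N, Y3W/K4L, Y3W/K4M, Y3W/K4T and Y3W/K4V. All but K1V/K4G hold N2K, N2R or Y3W. At an adjusted p of 0.01 the count was 4. Among the 441, 179 had K1 and K4 replaced, 143 had Y3 and K4 replaced and 80 had K1 and Y3 replaced. None was above the higher of its 2 singles, beside 0.0949% of the table, nor at an unadjusted p of 0.05, and 1591 (75.3%) were below it, beside 80.2%. Choosing the higher of 2 measured singles biases that reference upward, which disfavours calls above it and favours calls below it.

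Scores were then set against what the single substitutions predicted. The prediction was an isotonic curve, a line that may only rise, of the score against the summed effects of both singles, fitted to all peptides with 2 substitutions in the table. Over the 2114 peptides the score correlated with the plain sum of the single effects at r = 0.926. This r describes peptides that share their single substitutions and 1 library, and has no p. Above the curve lay 24 peptides (1.14%), beside 2.62% of all doubly substituted peptides, and 1 lay below it, beside 0.166%. At an unadjusted p of 0.05, 164 were above and 26 below.

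Of the 24 above the curve, 13 had Y3 and K4 replaced (3.69% of the 352 in that pair) and 8 held K4G (of 57). The share over all doubly substituted peptides was 2.62%. For Y3 with K4 the mean squared ratio of deviation to error was 1.93. It was 1.31 over the peptides described here and 1.87 over all doubly substituted peptides. With the product of single scores, the counts for that pair and for K4G were 0 and 1 of 5, and among peptides with lower errors 1 and 2 of 6. Among those past the threshold, the farthest above were Y3D/K4D (score -0.445 ± 0.0935, predicted -0.887), Y3N/K4D (-0.301 ± 0.121, predicted -0.735), K1Y/Y3G (0.0175 ± 0.0828, predicted -0.372), K1V/K4G (-0.440 ± 0.0409, predicted -0.727) and Y3S/K4G (-0.531 ± 0.0331, predicted -0.770). Their deviations were 0.442, 0.434, 0.390, 0.287 and 0.239. The 1 peptide below the curve was Y3M/K4A, at -0.694 ± 0.0553 against a prediction of -0.484 (deviation -0.209). The balance of calls depended on the expectation. It was 14 above and 23 below with the plain sum of effects, 6 above and 0 below with a curve fitted to these peptides alone, and 5 above and 72 below with a product of single scores above the stop level. All peptides called above the curve in those settings were among the 24. K1V/K4G and K1Y/Y3G were called above the prediction under all 5 expectations tried. Y3D/K4D and Y3S/K4G lost the call with the product, Y3N/K4D lost it in 3 of the 5, and Y3M/K4A lost it with the curve of these peptides alone and with each substitution's median removed.

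The same deviations were averaged by residue class within position pairs. Of 84 comparisons of a class with the rest of its pair, 6 passed. Basic residues at position 2 lay above the others by 0.0526 ± 0.0161 with K1 replaced and by 0.0615 ± 0.0159 with K4 replaced. These 2 also passed with the plain sum and with the curve fitted to these peptides alone, where 5 and 2 comparisons passed in all. The others were glycine at Y3 with K1 (0.0656 ± 0.0209), acidic residues at Y3 with N2 (0.0663 ± 0.0210), basic residues at Y3 with K4 (0.0549 ± 0.0182) and glycine at K4 with Y3 (0.0858 ± 0.0240). With the plain sum, glycine at Y3 (0.0598) and acidic residues at Y3 (0.0237) lost the call. With the curve of these peptides alone all 4 lost it. Among peptides with the lower errors, 3 passed.

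Whether a class deviated differently beside different partner positions was tested for every class and every 2 partner positions. Each class entered as its mean deviation minus that of the rest of its position pair. There were 84 differences in all, a set added after the class deviations had been seen. With Benjamini-Hochberg adjustment over the 84, 11 passed against the curve and 21 against the plain sum, and the 11 all passed with the same sign in both. Relative to the rest of each pair, basic residues at position 2 deviated more beside K1 than beside Y3 substitutions, by 0.0537 ± 0.0131. Their deviation beside Y3 substitutions relative to K4 substitutions was -0.0625 ± 0.0130. The difference between K1 and K4 partners, -0.00886 ± 0.0128, did not pass. By the same measure, arginine at position 4 stood higher beside K1 than beside Y3 substitutions, by 0.0551 ± 0.0119. Glycine at position 3 stood higher beside K1 than beside N2 substitutions, by 0.0685 ± 0.0168.

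By charge of the 2 new residues, 36 peptides joined 1 acidic and 1 basic residue and averaged -0.244 ± 0.0109, with a mean deviation from the curve of 0.0730 ± 0.0151. The 22 peptides with 2 acidic residues averaged -0.530 ± 0.0272 with a deviation of 0.0646 ± 0.0314, and the 13 with 2 basic residues averaged -0.0191 ± 0.0117 with a deviation of 0.00212 ± 0.0182. The 1406 peptides with 2 uncharged residues had a mean deviation of 0.00751 ± 0.00553. The 4 peptides with an acidic residue at position 1 and a basic residue at position 2 had a mean deviation of 0.139. Each of the 4 lay above the curve without passing the test on its own. An acidic residue at position 1 had similar mean deviations beside a basic (0.137, 4 peptides) or acidic residue (0.128, 4 peptides) at position 3. Beside acidic residues at position 2 its mean deviation was -0.0349 (3 peptides), and beside aliphatic residues there -0.00286 (11 peptides). These group means are descriptions with no test of their own.

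The library that varied residues 1 to 4 in combination gave a second measurement of 933 of the peptides. Scores in the 2 libraries correlated at r = 0.871 and rho = 0.893, and at r = 0.948 over the 483 peptides with lower errors in both, across peptides that share substitutions. The combinatorial library scored its own wild type at -0.0412 ± 0.0552, and its scores were higher by a median of 0.0254. Among 968 shared sequences, 1 was lower and 1 higher past the threshold in the combinatorial library, each 0.103%, and both belong to the peptides described here. K1G/K4R scored -0.0382 ± 0.0225 in the pairwise library and -1.01 ± 0.217 in the combinatorial library. K1L/K4S scored -0.528 ± 0.0270 and -0.274 ± 0.0426.

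Deviations from the sum of the singles were less alike between the libraries than the scores. Over 248 peptides with both singles in each library, deviations from the plain sum correlated at r = 0.205 and had the same sign in 141. Each deviation includes its library's wild-type score, whose error was 0.0552 in the combinatorial library. An error in that score shifts all deviations of the library together. Counts of the same sign depend on such a shift, and the correlations do not. By position pair the correlation ranged from -0.168 for N2 with Y3 (same sign in 6 of 23) to 0.545 for Y3 with K4 (30 of 39). It was -0.0710 for K1 with N2 (18 of 37) and -0.0677 for K1 with K4 (48 of 71). For K1 with Y3 it was 0.403 (21 of 44) and for N2 with K4 0.253 (18 of 34). K1V/K4G, above every prediction in the pairwise library, scored -0.696 ± 0.0786 in the combinatorial library, 0.211 below the sum of its singles there (deviation -0.211). Y3S/K4G scored -0.503 ± 0.0324 there, with a deviation of 0.0283. K1Y/Y3G scored -0.115 ± 0.0574, with no deviation computed. The deviations of K1V/K4G and Y3S/K4G in the combinatorial library are given without an error of their own. Such an error would combine those of the peptide, both singles and the wild type. Whether these deviations differ from 0 was not tested. Of the peptides with an acidic residue at position 1 and a basic residue at position 2, K1E/N2R scored -0.0859 ± 0.0715, K1D/N2R -0.120 ± 0.0475 and K1D/N2K -0.126 ± 0.0894 in the combinatorial library.

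Against the rest of the pairwise table, substitutions confined to residues 1 to 4 left the higher scores. Peptides with both substitutions within residues 5 to 8, which hold the core motif, averaged -0.805 (1510 peptides), 0.507 ± 0.00586 below those described here. Peptides with 1 substitution in each stretch averaged -0.602 (4825 peptides), a difference of 0.305 ± 0.00283. Medians were -0.259 for residues 1 to 4, -0.851 for residues 5 to 8 and -0.623 for the peptides with 1 substitution in each. Of the peptides within residues 5 to 8, 93.2% were lower than wild type, and of those joining both stretches 90.1% were, against 82.0% within residues 1 to 4. The groups were not equally covered: 69.7% of the possible peptides within residues 5 to 8 and 83.5% of those joining both stretches were listed, against 97.6%. Their median errors were also larger, 0.114 and 0.0793 against 0.0530.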

How the data were processed

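Amplicons of CRIPT variants were sequenced before and after growth of yeast in methotrexate. The deposited tables give 1 fitness score per peptide with an error on the same scale, merged by the authors over replicates, per the file headers. The tool, the count filter, the log base and the kind of error are not given in the sources used here, so depth and sampling error cannot be stated beyond the authors' error. Of the 4 tables, 2 were used (the pairwise and the combinatorial residues 1 to 4 table), with 0 columns of unmapped samples.

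Differences were divided by the combined errors and tested by a two-sided normal test with Benjamini-Hochberg adjustment over the whole table, at 0.05, in Python 3.11.15 with NumPy 2.4.6, pandas 2.3.3, SciPy 1.17.1 and scikit-learn 1.9.0. Errors of shared singles were propagated into class deviations. Errors of class means came from the doubly substituted peptides alone. On simulated data, 200 of 8433 deviations were changed. Of changes of 0.2, 0.3 and 0.4, 40.5%, 78% and 93% were recovered, with 3.57%, 8.24% and 6.53% of calls false. The simulated noise was independent, normal and of the size of the authors' errors. In the data the mean squared ratio of deviation to error was 1.31, and 1.93 for Y3 with K4. The simulated shares therefore hold only for the simulated setting.

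Peptides were named by rule: the 2 highest and 2 lowest of each position pair among those with lower errors, the 5 farthest past the threshold on each side of the curve, charge and alanine replacements of K1 and K4 or of N2 and Y3, the 5 highest and 5 lowest median shifts, and peptides that differed between libraries. Peptides raised by a partner were named after their values were seen. The peptides, classes and lists were chosen with earlier results of these data known. Alternatives were other thresholds, references, weights, expectations and the peptides with lower errors.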

Additional observations from a re-analysis of the deposited data

How the results depend on the processing

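No paired analysis was possible because the authors had merged the replicates into 1 score per peptide, and for the same reason no replicate could be left out. Against a reference of 0, which carries no error of its own, 3 peptides were higher than that reference, whereas 0 were higher than wild type. The count above the curve of 24 became 8 at an adjusted p of 0.01, 14 with the plain sum, 6 with a curve of these peptides alone, 5 with the product, 6 among peptides with lower errors and 7 with each substitution's median removed. The count below it of 1 became 0 at 0.01, 23 with the plain sum, 0 with the curve of these peptides alone and 72 with the product. The count above the lower single of 13 became 4 at 0.01. The mean effect of -0.329 was -0.275 with inverse-variance weights, -0.291 as a median, -0.292 among peptides with lower errors and -0.297 against 0. Class deviations past the threshold numbered 3 among peptides with lower errors and 2 with the curve of these peptides alone, against 6. Differences of class deviations between partner positions numbered 21 with the plain sum, against 11. The plain sum and the curve of these peptides alone for class deviations, and the whole set of their differences, were added after the data had been seen. The correlation between libraries rose to 0.948 with lower errors in both, and differences in medians from the other peptides were 0.591 (residues 5 to 8) and 0.363 (joining). The cause of these changes was not tested. The balance of calls around the curve turned from mostly above to mostly below with the plain sum and the product, and 23 of 240 recomputed deviations of named peptides, from 14 peptides not called against the curve, changed sign. The other 20 summary values stayed within 1.5 times or within their error, and of the named peptides' comparisons with wild type 149 kept their call, 8 lost it and 1 gained one, and of their deviations 224 kept it, 9 lost it and 7 gained one. The unknown depth and the authors' error limit every value.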
